A study of Arabidopsis thaliana with 12 samples.

Results

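The transcripts of 6 class A heat shock factors of Arabidopsis thaliana were followed in leaves under high light, heat and both at once: HSFA2 (AT2G26150), HSFA3 (AT5G03720), HSFA6A (AT5G43840), HSFA6B (AT3G22830), HSFA7A (AT3G51910) and HSFA7B (AT3G63350). They were chosen by locus, as the class A factors named as heat-inducible, and are 6 of the 32833 loci in the deposited table. Wild-type plants of the Col-0 ecotype, 30 days old and raised at 23 °C with 12 h of light a day at 50 µmol m-2 s-1, gave 4 groups of 3 libraries each. The combination group had 600 µmol m-2 s-1 together with 42 °C, the heat group 42 °C and the high light group 600 µmol m-2 s-1, each for 7 h, and the control group had neither stress. The labels give neither the light of the heat group nor the air temperature of the high light group, and they do not state that the libraries come from different plants. The p-values below therefore measure the spread between libraries, which may be technical.

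Heat shock factors are transcription factors that bind heat shock elements, runs of the unit nGAAn in alternating orientation, and switch on chaperone genes when proteins unfold. In plants the family is large: HSFA1 factors are present before stress and start the response, while genes such as HSFA2 and the HSFA7 pair are themselves switched on by heat and carry it further. HSFA2 forms complexes with HSFA1 and HSFA3 and is known for acquired thermotolerance and heat memory. HSFA3 is a target of the drought and heat factor DREB2A, HSFA6B links abscisic acid to heat tolerance, and HSFA6A is known from salt and drought responses.

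The upstream sequences of HSFA2, HSFA7A and HSFA7B are shown because each holds a heat shock element of 3 units. They are given 5′ to 3′ on the strand of the gene, from the RefSeq TAIR10.1 genome, and end at the base before the annotated gene start. Capitals mark matches to GAANNTTCNNGAA or TTCNNGAANNTTC and, where they stand alone, to the shorter GAANNTTC or TTCNNGAA. The sequences lie at chr2:11135466-11135623 for HSFA2, which fills the whole space to the next gene, at chr3:19264891-19265140 for HSFA7A and at chr3:23398986-23399235 for HSFA7B, all on the plus strand.
HSFA2: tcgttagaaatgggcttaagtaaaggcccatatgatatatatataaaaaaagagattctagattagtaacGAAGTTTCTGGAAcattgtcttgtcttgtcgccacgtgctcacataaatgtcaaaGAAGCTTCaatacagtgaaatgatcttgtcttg
HSFA7A: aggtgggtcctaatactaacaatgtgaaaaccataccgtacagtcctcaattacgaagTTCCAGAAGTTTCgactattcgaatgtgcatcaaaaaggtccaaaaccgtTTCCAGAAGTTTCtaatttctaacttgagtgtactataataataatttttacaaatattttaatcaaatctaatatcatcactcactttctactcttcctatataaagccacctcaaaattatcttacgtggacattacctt
HSFA7B: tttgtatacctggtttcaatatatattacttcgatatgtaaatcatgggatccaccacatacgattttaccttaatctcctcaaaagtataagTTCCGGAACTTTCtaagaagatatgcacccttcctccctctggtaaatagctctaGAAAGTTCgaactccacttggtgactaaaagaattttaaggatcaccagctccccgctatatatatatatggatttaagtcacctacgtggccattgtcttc

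Within the 250 bases before the gene start, read on both strands, a heat shock element of 3 units stood in 106 of 27443 promoters, or 0.386%. HSFA2 held 1, GAAGTTTCTGGAA, at -88 to -76. HSFA7A held a pair with the same letters, TTCCAGAAGTTTC, at -192 to -180 and -142 to -130. HSFA7B held 1, TTCCGGAACTTTC, at -157 to -145. HSFA3, HSFA6A and HSFA6B had no match to these letters in that window, most of which in HSFA3 lies inside the neighbouring gene CTR1. The same 3 members, HSFA2, HSFA7A and HSFA7B, also held the abscisic acid element core ACGTG or its complement CACGT, found in 22.9% of promoters, with both HSFA2 matches overlapping. The drought element cores ACCGAC and GCCGAC, on either strand, stood in 7.09% of promoters and in no member. Of the other class A factors 0 of 9, of the class B and C factors 0 of 6, of 12 listed regulators 1 and of 12 listed target genes 2 held an element of 3 units. These letter matches say nothing of whether a factor binds there.

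**Figure D1:**
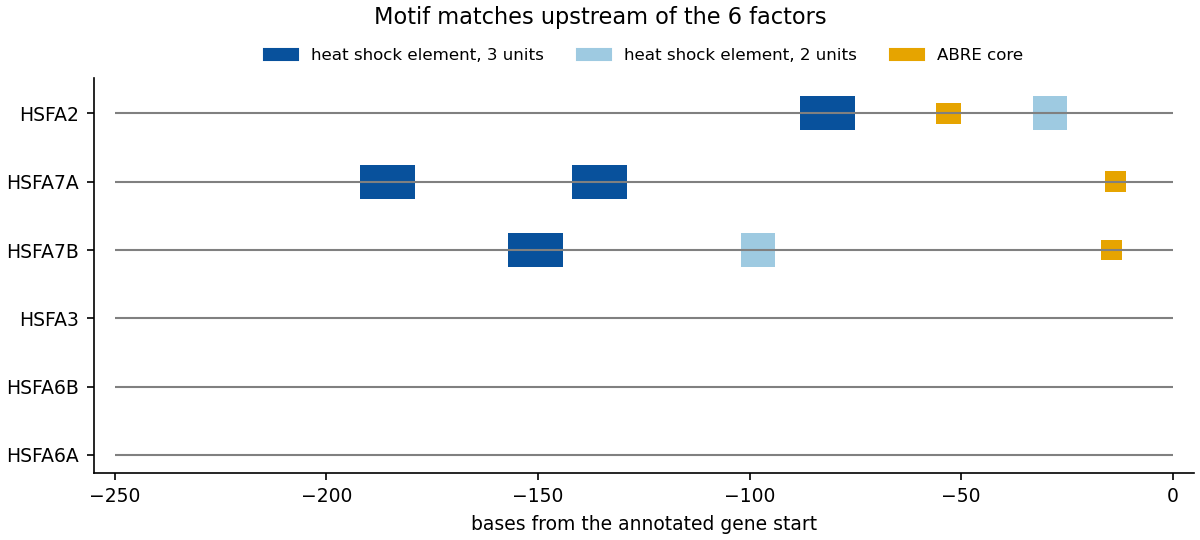
Positions of motif matches in the 250 bases upstream of the annotated start of each of the 6 genes, drawn to scale in bases from the start (x axis), 1 line per gene, with boxes for heat shock elements of 3 and of 2 units and for the ABRE core (the abscisic acid element). HSFA7A carries its elements of 3 units at -192 and -142, HSFA7B at -157 and HSFA2 at -88, and the other 3 lines hold no box.

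Levels are normalised read counts, that is reads divided by the authors' size factor for the library. Libraries held 29814116 to 32892194 reads in the combination, 34688170 to 36938786 in heat, 33626361 to 36768410 in high light and 32799975 to 34206515 in control. Size factors were 0.535 to 0.605 in the combination and 1.05 to 1.53 in the other 3 groups, and log2 levels of 2 libraries of a group correlated across loci at r = 0.936 to 0.990. Scaling by library totals in place of size factors moved the median of all loci by -0.95 (log2) between combination and control. The summed normalised count of 4 leaf mesophyll markers was 1283340 to 1390640 in the combination, 383267 to 785797 in heat, 650479 to 836476 in high light and 632444 to 784870 in control. As a share of reads the sum was 2.09% to 2.72% in the combination, 1.58% to 2.37% in heat, 2.28% to 2.81% in high light and 2.45% to 2.72% in control. Of the 4 markers 3 were higher in the combination against control (median log2 change 1.31), and in high light against control 1 was higher and 1, LHCB1.1 (AT1G29920), was lower, at -3.48 (limma adjusted p = 2.53e-05). The part of these shifts in the results was not tested. The summed count of 3 seed markers was at most 8.37 in any library and that of 2 flower organ markers at most 33.5. In whole leaves, fewer cells of a type and less RNA per cell cannot be told apart. Differences were tested with limma on log2(normalised count + 1) over the 19309 loci with a mean of at least 10, with Benjamini-Hochberg adjusted p-values and a threshold of 0.05. The 3 comparisons with control share the same 3 control libraries.

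HSFA2, at chr2:11135624-11137792 on the plus strand (TAIR10.1 gene models, as for all positions here), encodes a factor tied to heat memory and had the highest group mean of the 6 under every stress. Its normalised count was 252386, 457851 and 427106 in combination libraries 1, 2 and 3. It was 519.9, 9332 and 78546 in heat libraries 1, 2 and 3, 129.2, 1383 and 4719 in high light libraries and 16.9, 63.8 and 16.2 in control libraries. Every combination library stood above every heat library, and every stressed library above every control library, while heat and high light overlapped. HSFA2 took 0.697 ± 0.166% of all reads in the combination, 0.0896 ± 0.129% in heat, 0.00707 ± 0.00792% in high light and 0.000121 ± 0.000109% in control (SD, n = 3 each). Per kilobase of exon it ranked 21st to 34th of 27445 loci in combination libraries, against 54th to 8420th in heat, 1325th to 14241st in high light and 16210th to 18103rd in control.

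The spread of HSFA2 differed widely between groups. The highest library was 1.81 times the lowest in the combination, 151 times in heat, 36.5 times in high light and 3.93 times in control. Against control, HSFA2 rose by 13.72 ± 1.51 in the combination (log2, SE, limma adjusted p = 1.3e-05), or 14.35 without control library 2. It rose by 8.06 in heat (limma adjusted p = 0.000938), with 6.34 without heat library 3, 8.69 without control library 2 and 9.96 without heat library 1, and by 5.13 in high light (adjusted p = 0.0188). The combination exceeded heat by 5.66 ± 1.51 (limma adjusted p = 0.00706), with a difference of 3.76 without heat library 1 and 7.38 without heat library 3. It exceeded high light by 8.60 ± 1.51 (limma adjusted p = 0.000404), with 7.16 without high light library 1 and 9.76 without library 3. The high light call against control was lost without high light library 2 or 3 or control library 1 or 3, at 3.97 to 4.85 (limma adjusted p = 0.0599 to 0.0893), and the change was 6.56 without high light library 1 and 5.75 without control library 2. With the replicate number as a block that call had a limma adjusted p of 0.00383.

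HSFA7A, at chr3:19265141-19266806 on the plus strand, is a class A factor known to be induced by heat. Its normalised count was 8058, 26187 and 31751 in combination libraries 1 to 3. It was 98.2, 704.2 and 2570 in heat libraries, 32.1, 71.9 and 438.3 in high light libraries and 20.3, 37.8 and 10.2 in control libraries. Combination libraries stood above all the others, heat stood above control, and high light overlapped both heat and control. HSFA7A rose against control by 9.81 ± 1.09 in the combination (SE, limma adjusted p = 1.41e-05), or 10.42 without combination library 1. It rose by 4.75 ± 1.09 in heat (limma adjusted p = 0.00348), where the change was 6.001 without heat library 1 and 3.65 without heat library 3. In high light the difference of 2.28 ± 1.09 did not pass (limma adjusted p = 0.129, 95% interval -0.09 to 4.65). It did not pass with the replicate number as a block either (limma adjusted p = 0.0509), nor with edgeR (2.95, adjusted p = 0.068). With DESeq2 it passed (2.98, adjusted p = 0.0212). The combination exceeded heat by 5.06 ± 1.09 (limma adjusted p = 0.002), or 19.6 times as the ratio of group means, with 3.81 without heat library 1, 6.16 without heat library 3 and 5.67 without combination library 1.

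HSFA7B, at chr3:23399236-23400812 on the plus strand, is the close relative of HSFA7A and is also known from salt responses. It had no read in any control library. Its normalised count was 5582, 24057 and 15300 in combination libraries 1 to 3. It was 0.655, 186.8 and 671.5 in heat libraries and 0.783, 0.765 and 4.43 in high light libraries, which are 1, 208 and 704 reads in heat and 1, 1 and 5 reads in high light. Combination libraries lay above all others. Heat library 1 overlapped high light: it and high light libraries 1 and 2 held 1 read each, so their order follows from the size factors alone. With a floor of 3 reads per library, which covers counting error only and is 2.49 normalised counts in control, HSFA7B was at least 6024-fold higher in the combination than in control and at least 115-fold higher in heat than in control. The heat bound rests on heat library 3, being 37.7-fold without it and 173-fold without heat library 1, whose 1 read lies under the floor. Both rises passed (limma adjusted p = 1.84e-05 and 0.00802), and the fitted heat change of 5.89 was 4.14 without heat library 3, 5.06 without heat library 2 and 8.47 without heat library 1. HSFA7B met the filter on low values only through the heated groups, so these calls are not independent of the filter. In high light it lay at or under that floor on average, so no fold against control is given. The combination exceeded heat by 7.74 ± 1.57 (log2, SE, limma adjusted p = 0.00134), which was the largest rise of the 19309 loci in that comparison, and by 52.3 times as the ratio of group means. Its rank among all loci was read in the main fit only, where heat library 1 held 1 read. The log2 difference was 5.16 without heat library 1, 8.57 without heat library 2, 9.49 without heat library 3 and 8.34 without combination library 1. With edgeR it was 5.66 and with DESeq2 5.71.

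HSFA3, at chr5:971142-974326 on the minus strand, was high in both heated groups without a passing difference between them. Its normalised count was 10829, 4902 and 3219 in combination libraries 1 to 3. It was 682.9, 5448 and 5962 in heat libraries, 107.2, 201.1 and 150.5 in high light libraries and 61.6, 53.6 and 49.5 in control libraries. Combination and heat overlapped, both stood above high light, and high light stood above control. HSFA3 rose by 6.64 ± 0.67 in the combination (SE, limma adjusted p = 7.18e-06) and by 5.66 in heat (adjusted p = 4.37e-05), or 6.68 without heat library 1, against control. Heat exceeded high light by 4.24 ± 0.67 (limma adjusted p = 0.000302), or 5.26 without heat library 1. The combination differed from heat by 0.98 ± 0.67 (limma adjusted p = 0.231), with a 95% interval of -0.47 to 2.44, and by -0.038 without heat library 1. High light differed from control by 1.42 ± 0.67 (limma adjusted p = 0.123), where the SE takes in the spread of all 4 groups. At the same size the difference passed without heat library 1 (limma adjusted p = 0.00846). It also passed in a fit of only high light and control (adjusted p = 0.00244), but not with the replicate number as a block (0.137). A gene on the opposite strand, AT5G03710, overlaps HSFA3 by 486 bases, and the strand of the libraries is not given. AT5G03710 had 72.7, 3.74 and 5.02 in combination libraries and 17.0, 297.3 and 177.4 in heat libraries.

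HSFA6B, at chr3:8078789-8081059 on the plus strand, ran the other way: it was highest under heat alone. Its normalised count was 54.6, 0 and 0 in combination libraries 1 to 3, from 33, 0 and 0 reads. It was 258.6, 92.5 and 53.4 in heat libraries, 10.2, 11.5 and 15.1 in high light libraries and 11.8, 3.15 and 9.40 in control libraries. Heat stood above high light and control, and combination library 1 reached the lowest heat library while the other two held no read. Against control HSFA6B rose by 3.74 ± 1.22 in heat (SE, limma adjusted p = 0.0229), a call lost without heat library 1 (3.12, adjusted p = 0.0748), heat library 2 (3.86, adjusted p = 0.0527) or control library 2 (3.25, adjusted p = 0.0802). In the combination it was lower than in heat, at -4.85 ± 1.22 (log2, limma adjusted p = 0.00515), with -6.78 without combination library 1, -3.88 without combination library 2 or 3 and -4.22 without heat library 1. Combination against control was -1.11 ± 1.22 (limma adjusted p = 0.453, 95% interval -3.76 to 1.55), but -3.04 without combination library 1 (adjusted p = 0.00203), while the group means stood the other way, at 18.2 ± 31.5 in the combination and 8.12 ± 4.47 in control (SD, n = 3 each). The difference from heat did not pass with DESeq2 (-2.89, adjusted p = 0.0707). In the combination group 0 reads allow a level of up to 5.19 normalised counts, the mean value of 3 reads there. At 0 to 395 reads per library HSFA6B is the member whose values rest on the fewest reads among those tested.

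HSFA6A, at chr5:17625353-17626487 on the minus strand, was barely detected and fell under the filter on low values. It showed no rise over control in the heated groups, with means of 6.15 in the combination and 2.31 in heat, against 11.04 in control. Libraries of both heated groups overlapped those of control. Its normalised count was 13.2, 1.87 and 3.35 in combination libraries, 1.31, 1.80 and 3.82 in heat libraries and 11.8, 0.788 and 20.5 in control libraries. No high light library held a read of it. The reads behind these values were 8, 1 and 2 in the combination, 2, 2 and 4 in heat and 14, 1 and 24 in control. With the floor of 3 reads per library, HSFA6A was at least 4.54-fold lower in high light than in control, or 2.59-fold without control library 3. Control library 2, with 1 read, lies under the floor itself. Without the filter, over 26880 loci, high light against control was -2.98 ± 0.80 (log2, SE, limma adjusted p = 0.0146), heat against control -1.33 (adjusted p = 0.219) and combination against control -0.49 (adjusted p = 0.648). The combination exceeded high light by 2.49 ± 0.80 (limma adjusted p = 0.0211), and the interaction of light and heat was 3.82 ± 1.13 (adjusted p = 0.0191). Both values rest on the 0 reads of high light. With the floor, HSFA6A was at least 2.53-fold higher in the combination than in high light, but 1.07-fold without combination library 1. Combination libraries 2 and 3, with 1 and 2 reads, lie under the floor themselves.

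**Figure D2:**
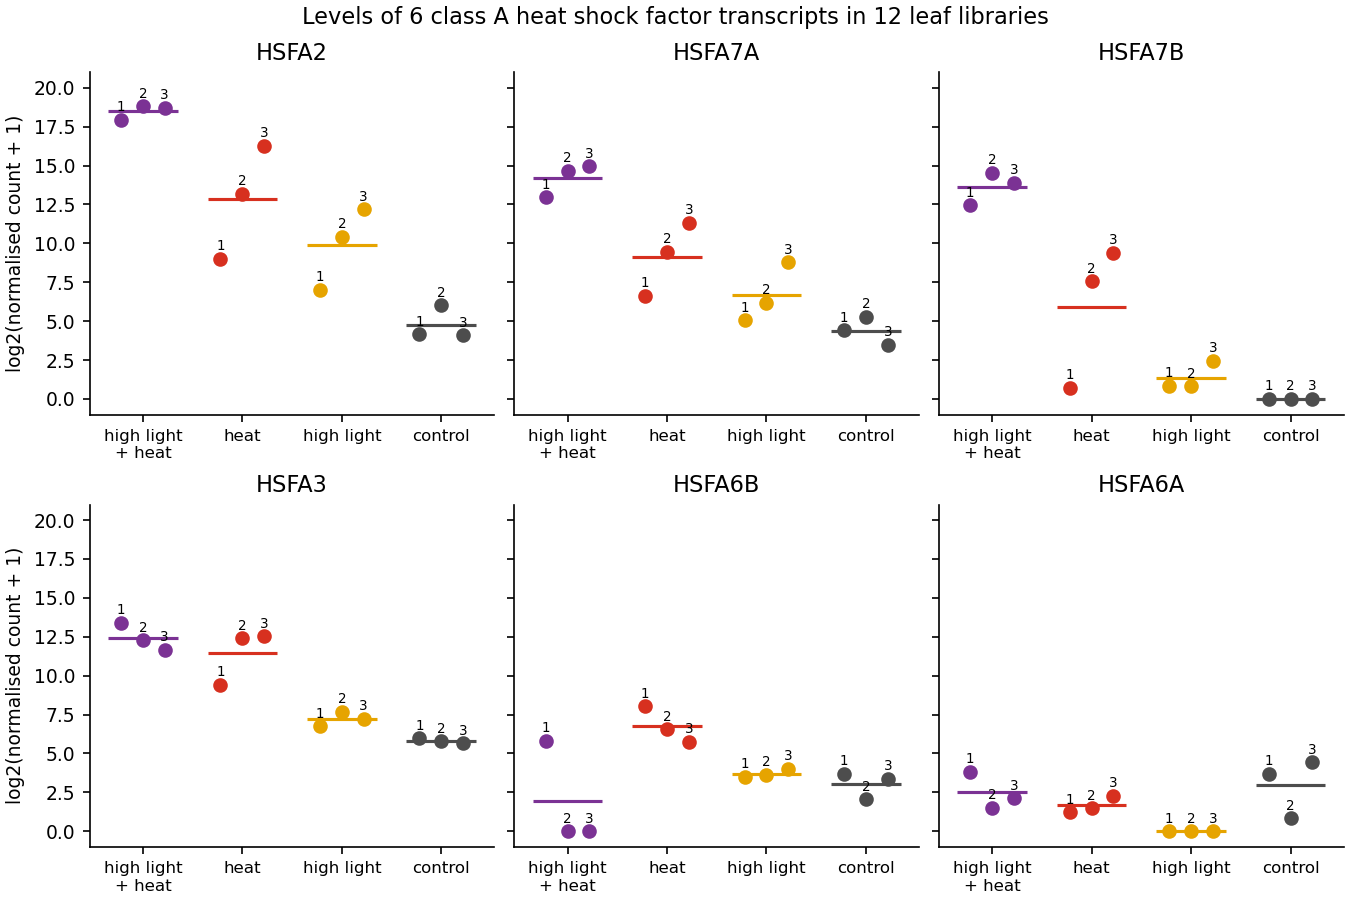
Level of each of the 6 transcripts in each library, as log2(normalised count + 1) on the y axis, by group on the x axis, with points for libraries (numbered 1 to 3) and a bar for the group mean, 3 libraries a group. HSFA2, HSFA7A and HSFA7B step up to the combination, HSFA3 overlaps between combination and heat, HSFA6B peaks in heat, and HSFA6A stays under 5 in all libraries.

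Counted together, 5 of the 6 members passed the filter on low values, HSFA7B and HSFA6B through the heated groups. Calls of HSFA7B and HSFA6B as higher in a heated group than in control are therefore not independent of the filter. The same holds for calls of HSFA7B as higher in a heated group than in high light, where its mean was 1.99. The HSFA7B interaction given below draws on the same groups. In the combination against control, 4 of these 5 were higher, while 29.8% of all loci tested were higher and 29.7% lower, and the members' median log2 change was 9.81 against -0.02 for all loci. In heat against control 5 of 5 were higher, with 24.6% of all loci higher, 24.8% lower and a members' median of 5.66. In high light against control 1 of 5, HSFA2, was higher, with 18.1% of all loci higher, 16.6% lower and a members' median of 1.42, so that this share lay near the background. In the combination against high light 4 of 5 were higher, with 28.1% of all loci higher and 29.3% lower. In the combination against heat HSFA2, HSFA7A and HSFA7B were higher (27.9% of all loci) and HSFA6B was lower (27% of all loci). In heat against high light HSFA3 and HSFA7B were higher, with 24.5% of all loci higher and 24.9% lower. Same-numbered heat and high light libraries deviated together, though weakly (r = 0.147 to 0.152 in 3 of 3 pairs). Among differently numbered libraries of all groups 2 of 36 pairs were over 0.1, up to 0.187. With the replicate number as a block all 5 passed: HSFA2 (limma adjusted p = 0.0436), HSFA6B (0.0276) and HSFA7A (0.0273) beside HSFA3 and HSFA7B. Without the block, the HSFA7B call was lost without heat library 2 or 3 or high light library 1 or 2, at 2.78 to 4.26 (limma adjusted p = 0.0793 to 0.132). HSFA2 passed there without heat library 1 (4.84, limma adjusted p = 0.00673), HSFA7A without heat library 1 (3.72, adjusted p = 0.00735) or high light library 3 (3.52, adjusted p = 0.0229), and HSFA6B without any 1 combination library (3.07, adjusted p = 0.00112 to 0.0423).

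**Figure D3:**
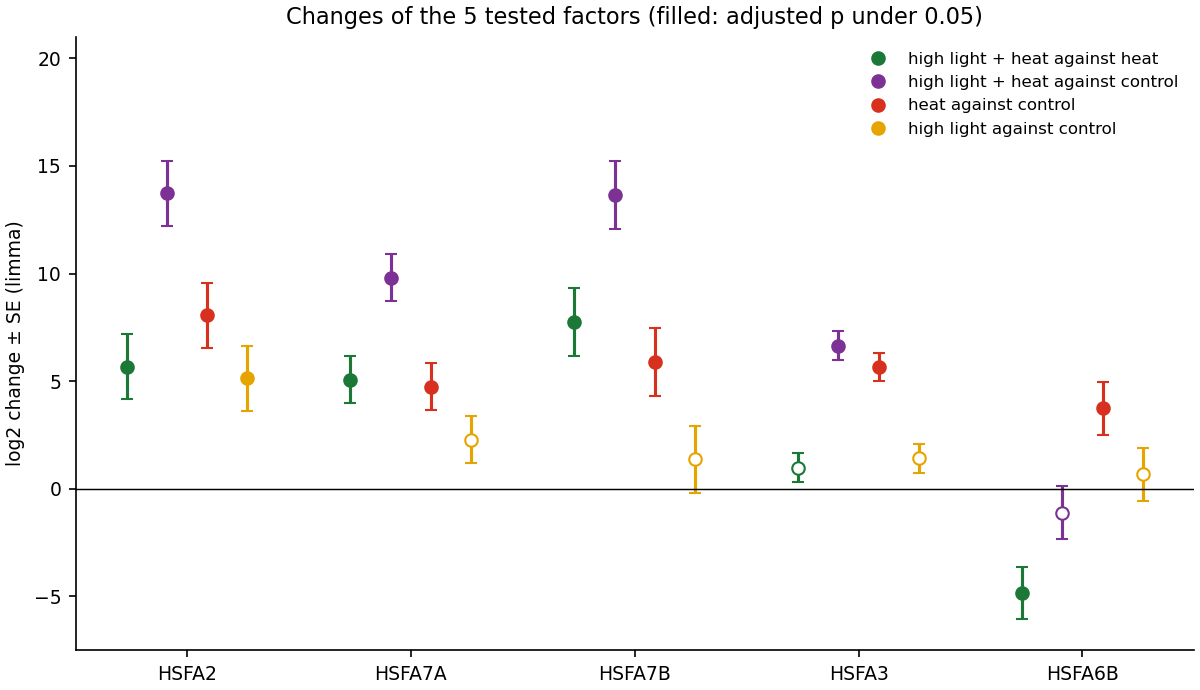
Log2 change of each tested member (y axis, limma estimate with its SE as the error bar, 3 libraries a group) in 4 comparisons, with filled points where the adjusted p was under 0.05 and open points elsewhere. Combination against heat is 5.66 for HSFA2, 5.06 for HSFA7A and 7.74 for HSFA7B, near 1 and open for HSFA3, and -4.85 for HSFA6B.

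The interaction of light and heat asks whether the combination differs from the sum of both single changes on the log2 scale. For HSFA7B it was 6.38 ± 2.22 (SE, limma adjusted p = 0.0326) and for HSFA6B -5.52 ± 1.73 (adjusted p = 0.0203), 1 higher and 1 lower, where 23% of all loci were higher and 23.2% lower. HSFA2 at 0.53 ± 2.14 (95% interval -4.10 to 5.16), HSFA7A at 2.78 ± 1.55 (-0.57 to 6.14) and HSFA3 at -0.44 ± 0.95 (-2.50 to 1.62) did not pass, though HSFA7A passed without heat library 3 (3.88, limma adjusted p = 0.039) and HSFA3 without heat library 1 (-1.46, adjusted p = 0.0451). Neither called interaction passed with edgeR or DESeq2. The HSFA7B interaction lost its call without combination library 2 or 3, high light library 1 or 2, or any control library (5.92 to 6.38, limma adjusted p = 0.0563 to 0.0724), and was 3.80, 7.21 and 8.13 without heat library 1, 2 and 3 and 6.97 without combination library 1. The HSFA6B interaction was -4.55 without combination library 2 (limma adjusted p = 0.0516), -4.55 without library 3, -7.45 without library 1 and -4.90 without heat library 1. On the scale of counts, the rise of HSFA2 over control was 379083 in the combination, against 31479 for the sum of the rises in heat and high light. The sum for HSFA2 rests on heat library 3 and was 6938 without it. For HSFA7A the rise was 21976 in the combination and 1259 for the sum, or 536 without heat library 3, and for HSFA7B 14980 and 288, with 95.7 for the sum without heat library 3. For HSFA3 they were 6262 and 4074, but 4006 in the combination without its library 1. For HSFA6B they stood the other way, at 10.06 in the combination and 131 for the sum, with 69.0 for the sum without heat library 1 and -8.12 in the combination without its library 1.

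The libraries of a group did not order the members alike. In heat, library 1 was lowest for HSFA2, HSFA3, HSFA6A, HSFA7A and HSFA7B and highest for HSFA6B. In the combination, library 1 was lowest for HSFA2, HSFA7A and HSFA7B and highest for HSFA3, HSFA6A and HSFA6B. The summed count of the 12 listed target genes was likewise lowest in library 1 of each group: 2907990 in the combination, 158530 in heat, 1458 in high light and 609.6 in control. Chloroplast genome transcripts, by contrast, were highest in combination library 2, at 0.212% of reads against 0.0422% and 0.0274% in combination libraries 1 and 3. The part of these differences between libraries in the results was not tested.

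Per kilobase of exon, a scale on which genes can be compared, HSFA2 led in the combination with 202087 ± 59073 normalised counts per kb, ahead of HSFA7A at 18981 ± 10690 and HSFA7B at 13857 ± 8549 (SD, n = 3). HSFA3 followed at 2858 ± 1809, and HSFA6B at 11.5 ± 20.0 and HSFA6A at 5.82 ± 5.85 came last. Within each combination library HSFA7A stood above HSFA7B, though their ranges across libraries overlapped. The pair was closest in library 2, at 7.76% and 7.64% of the sum of the 6 members per kb. HSFA6B stood above HSFA6A in combination library 1 and below it in libraries 2 and 3. Neither difference was tested. Summed over the 6 members, the level per kb was 237800 ± 75350 in the combination, 18853 ± 25037 in heat, 1342 ± 1463 in high light and 77.3 ± 14.7 in control. HSFA2 made up 83.8% to 88.7% of this sum in the combination, 33.1% to 88.3% in heat, 45.2% to 84.5% in high light and 12.3% to 36.3% in control. HSFA3 made up 0.538% to 3.23% in the combination, 5.69% to 36.9% in heat, 2.29% to 31.9% in high light and 25.9% to 38.2% in control, where it was the largest member in libraries 1 and 3.

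**Figure D4:**
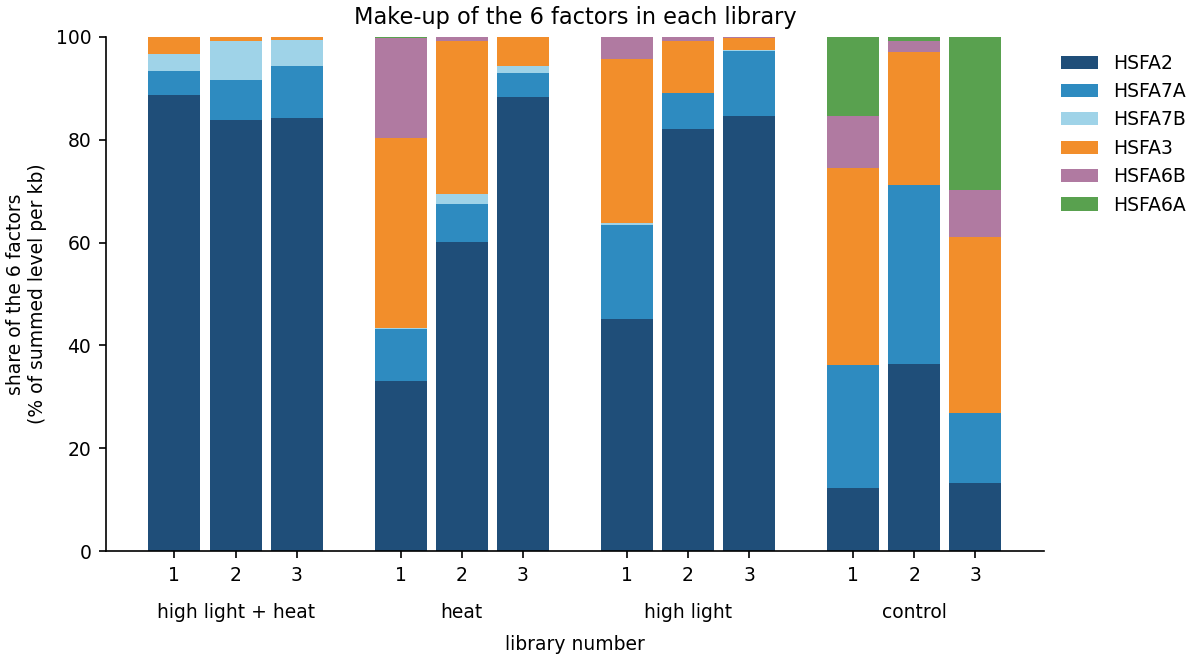
Share of each member in the summed level per kilobase of the 6 transcripts (y axis, %), 1 bar per library, grouped by condition along the x axis. HSFA2 fills at least 83.8% of every combination bar and at most 36.3% of a control bar, where HSFA3 takes 25.9% to 38.2%.

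Among genes with the most similar profile over the 12 libraries, measured as the root mean square difference of centred log2 levels, those nearest to HSFA2 were the chaperone gene HSP70 (AT3G12580) at 1.13, AT1G59860 at 1.27 and the chaperone gene HSP90.1 (AT5G52640) at 1.30. HSFA7A was 10th nearest to HSFA2 at 1.69 and HSFA7B 16th at 1.92. The nearest to HSFA7A were PDX1.2 (AT3G16050) at 0.620, Fes1A (AT3G09350), a nucleotide exchange factor of HSP70, at 0.784 and AT1G54050 at 0.812. The nearest to HSFA7B were Hsp70b (AT1G16030) at 0.988, AT5G54165 at 0.998 and AT1G59860 at 1.03. HSFA3 lay nearest to AtCDC48B (AT3G53230) at 0.591, RD28 (AT2G37180), an aquaporin, at 0.668 and RAS1 (AT1G09950) at 0.705. HSFA6B lay nearest to AT5G05545 at 0.985, TBL22 (AT3G28150) at 1.05 and AT1G64210 at 1.06, each with its highest group mean in heat.

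HSFA2 and its listed targets did not keep one ratio. The 12 targets, among them small heat shock proteins, HSP101 and the peroxidase gene APX2, summed to 8.40 to 12.5 times the HSFA2 count in combination libraries, 16.3 to 305 times in heat, 2.33 to 11.3 times in high light and 17.2 to 48.4 times in control. By group means HSFA2 was 14.2 times higher in heat (29466) than in high light (2077), with overlapping libraries. In each same-numbered pair HSFA2 was also higher in heat (519.9, 9332 and 78546, against 129.2, 1383 and 4719 in high light). Across numbers, the highest high light library and the lowest heat library for HSFA2 stood the other way. HSFA2 was 9.08 times higher in high light library 3 (4719) than in heat library 1 (519.9). Between these libraries the targets' sum was 14.4 times higher in heat library 1 (158530, against 10977). In the combination against control 12 of 12 targets rose, with a median log2 change of 13.10, and in heat 12 of 12 rose with a median of 10.27. Of all loci 29.8% and 24.6% rose in these comparisons. The targets were listed with earlier results of these data known, so their counts are descriptive only. In high light against control 1 of 12, HSP70 (AT3G12580), rose, by 4.73 ± 0.93 (SE, limma adjusted p = 0.00163). The median was 1.18, and 18.1% of all loci rose. The largest rises in the combination were those of HSP17.6A (AT5G12030) at 15.51 and HSP23.6-MITO (AT4G25200) at 15.35.

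**Figure D5:**
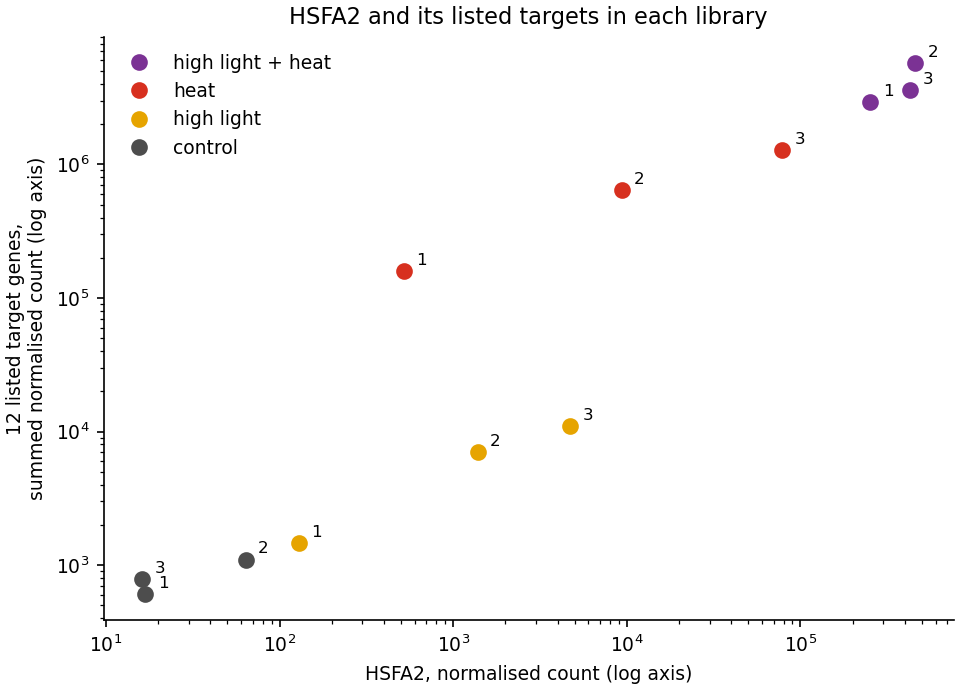
Summed normalised count of the 12 listed target genes (y axis, log scale) against the normalised count of HSFA2 (x axis, log scale), 1 point per library, coloured by group and numbered 1 to 3. Heat library 1, at 519.9 for HSFA2 and 158530 for the targets, lies far above high light library 3, at 4719 and 10977. These are the lowest heat library and the highest high light library for HSFA2, and they differ in number. In each same-numbered pair HSFA2 was higher in heat than in high light.

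Of the 4 HSFA1 genes, which start the heat response, HSFA1E (AT3G02990) averaged 747 ± 283 in the combination and 146 ± 10.9 in control (SD, n = 3 each). Group means of HSFA1A (AT4G17750), HSFA1B (AT5G16820) and HSFA1D (AT1G32330) stayed between 134 and 589 normalised counts in all 4 groups. Of 9 other class A factors, 8 were tested, and in the combination against control 3 were higher and 4 lower, with a median log2 change of -0.38. Of all loci 29.8% were higher and 29.7% lower in that comparison. HSFA1E rose by 2.29 ± 0.35 (SE, limma adjusted p = 0.000147) and HSFA1A by 1.12 ± 0.19 (adjusted p = 0.000327), while HSFA8 (AT1G67970) changed by -2.23 ± 0.60 (adjusted p = 0.00629) and HSFA4A (AT4G18880) by -1.11 ± 0.17 (adjusted p = 0.000151). Of 6 class B and C factors, which lack the activator motif of class A, 4 were tested. In the combination against control 3 rose, beside 29.8% of all loci. HSFB1 (AT4G36990) rose by 7.01 and HSFB2A (AT5G62020) by 5.42.

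Of 12 regulators known to act on or with these factors, 11 rose in the combination against control, 9 in heat and 7 in high light, with medians of 4.24, 2.22 and 1.31. Of all loci 29.8%, 24.6% and 18.1% rose in these comparisons. DREB2A (AT5G05410), the activator of HSFA3, averaged 31705 ± 9005 in the combination, 3876 ± 3024 in heat, 1288 ± 649 in high light and 255 ± 30.5 in control (SD, n = 3 each). It exceeded heat in the combination by 3.34 ± 0.51 (SE, limma adjusted p = 0.000228), beside 0.98 ± 0.67 for HSFA3 in the same comparison. MBF1C (AT3G24500), a coactivator of the heat response, changed by 10.24 in the combination, 6.01 in heat and 3.37 in high light against control. HSP90.1 (AT5G52640), of the chaperone family that holds heat shock factors inactive, rose by 12.84 in the combination. ROF2 (AT5G48570), a co-chaperone that modulates HSFA2, rose there by 10.42.

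The genes next to HSFA2 were read beside it, since the libraries' strand is not given. FTSH4 (AT2G26140), a mitochondrial protease gene that runs away from HSFA2 across the 158 bases printed above, averaged 23605 ± 10970 in the combination, 3217 ± 1320 in heat, 4793 ± 298 in high light and 3184 ± 63.9 in control (SD, n = 3 each). It rose in the combination against control by 2.75 ± 0.35 (log2, SE, limma adjusted p = 3.62e-05) and changed by -0.06 in heat (adjusted p = 0.899). AT2G26160, which ends 185 bases past HSFA2 on the opposite strand, had 99.2, 173.7 and 65.2 in combination libraries and at most 15.3 in any other library.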

How the data were processed

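Per the labels' protocols, leaf RNA was isolated with Trizol, cleaned on a column and made into TruSeq libraries after poly(A) enrichment. The tools named per the submitters' processing notes are FastQC 0.11.7 for read quality, STAR 2.4.0.1 for alignment, with TAIR10 as the build, and DESeq2 1.20.0. How reads were counted, and the strand and annotation, are not given in the sources used here. The deposited signal values are counts divided by the authors' DESeq2 size factor for each library, and division by the smallest value step of each library returned whole reads for all values (within 0.001).

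The members and gene lists were chosen with earlier results of these data known. The main model, by limma 3.58.1 with a trended prior in R 4.3.3, used log2(normalised count + 1) of the 19309 loci with a mean of at least 10, over all 12 libraries, with 1 mean per group. Tests were two-sided, adjusted by Benjamini-Hochberg within each of 7 comparisons, at a threshold of 0.05, and the fit was tested on simulated data. edgeR 4.0.16 and DESeq2 1.42.0 on the recovered reads, other scalings, filters, pseudocounts and left-out libraries were alternatives. Genes named beside the members were the 3 nearest profiles of each member, the 2 largest rises and falls of each list in the combination against control, DREB2A, MBF1C and the HSFA1 genes. Neighbouring genes, and APX2 and HSP101 as examples of targets, were named after their values were seen. The labels number the libraries 1 to 3 in each group without saying what a number shares. Deviations from the group means of same-numbered libraries correlated over 0.1 in 3 of 3 pairs of heat and high light (0.147 to 0.152) and of high light and control (0.157 to 0.307), in 1 of 3 of combination and control and in 0 of 3 of each other pair of groups. Of 36 differently numbered pairs 2 were over 0.1, up to 0.187. Heat against high light and high light against control were therefore read as possibly paired. Their main values come from the fit without the block, with block values beside them. Names, exon lengths and upstream sequences came from RefSeq TAIR10.1; the deposited table holds no coordinates.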

Additional observations from a re-analysis of the deposited data

Results flagged for a closer look

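For HSFA7B the effect of heat differed between light levels: the interaction of light and heat was 6.38 on the log2 scale (limma adjusted p = 0.0326), with heat raising the transcript further under high light than without it. This value rests on a gene with no read in control and 1, 1 and 5 reads in the high light libraries, and it was 1.56 with edgeR (adjusted p = 0.926) and 2.02 with DESeq2 (adjusted p = 0.553). For HSFA6B the interaction was -5.52 (limma adjusted p = 0.0203), with heat raising the transcript without high light and not under it. It rests on 33, 0 and 0 reads in the combination, and was -3.52 with edgeR (adjusted p = 0.0703) and -3.48 with DESeq2 (adjusted p = 0.143). The part of these low counts in either value was not tested.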

How the results depend on the processing

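Over the alternatives run, HSFA2, HSFA3, HSFA7A and HSFA7B passed under all 28 settings in heat against control, combination against control and combination against high light, as did HSFA7A and HSFA7B in combination against heat. Members called in high light against control numbered 1, but 2 with no filter, 3 in a fit of only the groups compared, 2 with DESeq2, 2 without heat 1 and combination 2 together, 0 at adjusted p under 0.01, and 0 to 2 with 1 library left out. The fit of only the groups compared gained HSFA3 (limma adjusted p = 0.00244) and HSFA7B (0.0417), which had 1, 1 and 5 reads in high light. In heat against high light 2 were called, but 5 with the replicate block, 3 with a pseudocount of 10 or with library totals (HSFA6B gained), 4 with edgeR, 5 with DESeq2, 4 without those libraries, 1 at 0.01, and 1 to 4 with 1 left out, and the fit of only the groups compared gained HSFA6B (adjusted p = 0.00288) and lost HSFA7B (0.0809). In combination against heat 4 were called, but 2 without those libraries (HSFA2, adjusted p = 0.0625, and HSFA6B, -3.26 with adjusted p = 0.078, were lost), and 4 with any 1 left out. In the interaction 2 were called, but 1 with a pseudocount of 0.5, 3 with no filter (HSFA6A gained), 1 with a filter at 50 (which removes HSFA6B), 0 with edgeR (1 at an unadjusted p under 0.05), 0 with DESeq2 (0 unadjusted), 1 without those libraries, 0 at 0.01 (limma, 2 at an unadjusted p under 0.05), and 0 to 3 with 1 left out. With 1 left out, 4 to 5 were called in heat, and 4 to 5 in the combination, against control, and 4 to 5 in combination against high light, where no filter also gave 5 (HSFA6A gained). The block changed no member's call outside heat against high light. The lower limits on folds and the rises on the scale of counts without 1 library were added after seeing the data. HSFA6B in combination against control turned to 0.071 with a pseudocount of 10, 1.11 with edgeR and 1.17 with DESeq2, and against high light to 0.53 and 0.58. HSFA6B in combination against heat was -2.89 with DESeq2 (adjusted p = 0.0707). The HSFA2 interaction turned to -0.29 with library totals, -2.35 with edgeR, -2.31 with DESeq2, -1.53 without those libraries, and lay between -1.37 and 2.25 with 1 library left out, below 0 without heat 1, high light 1 or control 2. With 1 library left out, HSFA3 in combination against heat lay between -0.038 (without heat 1) and 1.52, and its interaction between -1.46 and 0.10, above 0 without heat 2 or 3. The cause was not tested. Depth limits HSFA6A, HSFA6B and HSFA7B, with libraries of 0 to 5 reads.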
